A study of Homo sapiens with 6 samples.

Results

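The genes described are 32 targets and regulators of the tumour suppressor p53, taken as a listed set, in DLD1 cells. No measured value entered the list, but it was chosen with earlier results of these data known. DLD1 is an established human colorectal adenocarcinoma line. It is known as a p53-mutant line, which neither the labels nor these arrays report, so the p53 status is background here. For 29 of the 32 genes a probe set naming that gene alone was measured, out of 19775 genes measured in this way in all. Of the other members, BTG2 and FDXR had no probe set naming the gene alone in the annotation used. BBC3, which encodes the death inducer PUMA, had 1 probe set that also names microRNA genes. No expression level is given for any of them.

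The cultures received vehicle, DMSO, or SAH-BCL9B for 12 h. SAH-BCL9B is a stapled peptide made after the helix of BCL9 that binds beta-catenin, and the study asked what follows when that complex is disrupted. The labels give 10 µM for each arm, and each arm had 3 Affymetrix Human Genome U133 Plus 2.0 arrays from cultures called triplicates, with no peptide of altered sequence as a further control. Values are log2 expression levels after RMA, and every n below is 3 arrays per group. The labels do not say whether cultures were grown on separate occasions, so p-values measure the spread between these cultures.

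p53 is a transcription factor held low by MDM2 and MDM4 and released by DNA damage and other stress. It then activates genes that stop the cell cycle, promote death, repair DNA and adjust metabolism, together with genes that switch it off again. In many colorectal cancers p53 is mutated, and target genes that are still transcribed are then driven by other factors as well.

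After SAH-BCL9B, 3 of the 29 measured p53 pathway genes passed the test and they came from different branches. PLK2, which encodes a stress-responsive polo-like kinase, rose 1.73-fold. TIGAR, which encodes a sugar phosphatase that restrains glycolysis, rose 1.30-fold. DDB2, which encodes a sensor of ultraviolet damage in nucleotide excision repair, fell 1.71-fold. The 2 classic readouts of active p53 lay within the spread of the replicates, with log2 changes of -0.06 ± 0.09 (SE) for CDKN1A, the cell cycle inhibitor p21, and 0.13 ± 0.11 for MDM2. The test was limma's, with Benjamini-Hochberg adjustment over all 19775 genes and a threshold of 0.05, and it called 6.93% of all genes (3.49% higher and 3.43% lower). With 2 of 29 members called higher and 1 lower, the share called among the members is close to that background. The members were brighter, with a median vehicle level of 10.29 beside 7.69 over all genes. No comparison with genes of like level was made, here or for the other shares below. In such bulk RNA, fewer cells in a given state and less RNA per cell cannot be told apart.

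The promoters of the 3 genes that passed are shown so that the sequence next to each start can be read beside the change. Each run is the 250 bases before the start of transcription in RefSeq's table (build GRCh38.p14), written 5' to 3' on the gene's own strand, and capitals mark a match to the consensus p53 half-site.
PLK2 (chr5:58460087-58460336, minus strand): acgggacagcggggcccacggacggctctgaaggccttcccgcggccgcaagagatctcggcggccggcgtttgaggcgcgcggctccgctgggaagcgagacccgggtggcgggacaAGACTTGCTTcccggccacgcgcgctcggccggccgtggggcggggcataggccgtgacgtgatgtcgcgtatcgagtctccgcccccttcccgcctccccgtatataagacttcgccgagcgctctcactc
TIGAR (chr12:4320963-4321212, plus strand): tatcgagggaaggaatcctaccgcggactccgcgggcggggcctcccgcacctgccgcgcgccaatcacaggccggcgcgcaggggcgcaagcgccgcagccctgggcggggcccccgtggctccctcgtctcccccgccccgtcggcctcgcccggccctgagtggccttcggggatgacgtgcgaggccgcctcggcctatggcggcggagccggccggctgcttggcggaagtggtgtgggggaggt
DDB2 (chr11:47214204-47214453, plus strand): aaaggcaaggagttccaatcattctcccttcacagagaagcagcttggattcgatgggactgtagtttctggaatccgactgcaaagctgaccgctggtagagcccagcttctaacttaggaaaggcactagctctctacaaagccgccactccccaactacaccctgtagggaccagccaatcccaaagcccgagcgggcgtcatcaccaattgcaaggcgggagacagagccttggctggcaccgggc
The promoter of PLK2 held 1 match, which lay 132 to 123 bases before the start, and those of TIGAR and DDB2 held none in this window. GC made up 71.2% of the bases of the PLK2 window, 76.8% of that of TIGAR and 55.6% of that of DDB2.

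Of the 26 members matched in the promoter table, 4 held a consensus p53 half-site in these 250 bases (15.4%), against 5.53% of all 27305 promoters of the same length. The motif was searched on both strands, and it reads the same way on each. Beside PLK2 these were AEN, FDXR and RPS27L, and their matches are shown with up to 15 bases on either side so that the core of the site can be compared.
AEN (chr15:88621291-88621330, plus strand): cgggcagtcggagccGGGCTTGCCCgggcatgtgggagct
FDXR (chr17:74872995-74873020, minus strand): ggcccgggcaggagcGGGCTTGCCCt
RPS27L (chr15:63157512-63157551, minus strand): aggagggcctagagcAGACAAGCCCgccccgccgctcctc
The match of FDXR ends 2 bases before the start, so its window stops there. CTTTGAT, a core of the site bound by the TCF partners of beta-catenin, was searched on both strands too. It was in none of the 26 windows and in 2.28% of all promoters; with no match there was no overlap with the p53 half-site. A match is a match of letters only, and many known p53 sites lie outside such short windows.

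Over the 29 members, 22 had a positive and 7 a negative change, and the median log2 change was 0.15, beside 0.02 over all genes, of which 55.1% were positive. Most sizes were small: 1 of the 29 rose by at least 1.5-fold and 1 fell by that much, beside 2.20% of all genes in either direction. The median absolute log2 change was nonetheless larger in the members, 0.20, than over all genes, 0.11. In 14 members the groups did not overlap, 10 with SAH-BCL9B higher and 4 with it lower. Over all genes the groups did not overlap in 28.3%, with SAH-BCL9B higher in 16.3% and lower in 12.0%.

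**Figure D1:**
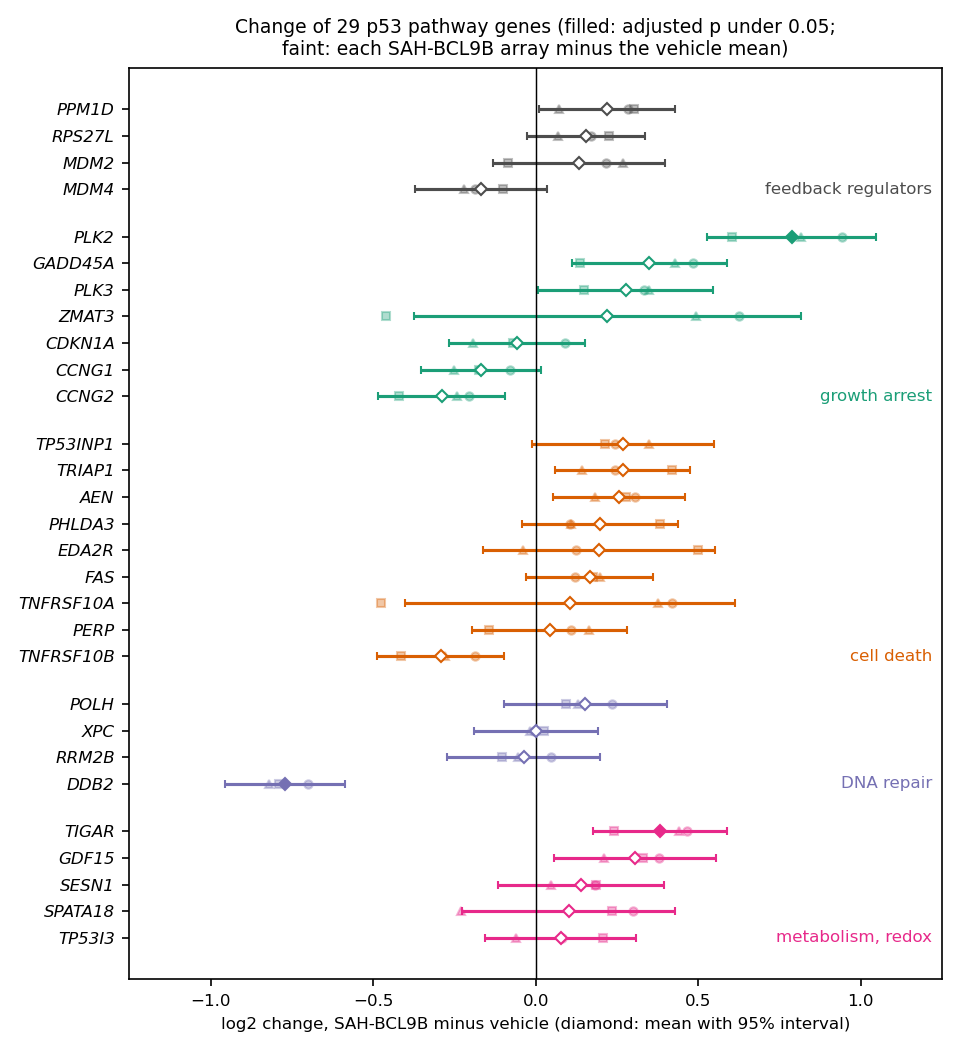
Log2 change (SAH-BCL9B minus vehicle, x axis) of each of the 29 measured genes (y axis), grouped by role, with limma's 95% confidence interval; faint marks are the 3 SAH-BCL9B arrays minus the vehicle mean (circle, square and triangle for replicates 1, 2 and 3). Filled diamonds, for PLK2, TIGAR and DDB2, passed the test, and in ZMAT3 and TNFRSF10A the square of replicate 2 lies left of 0 while the other marks lie right of it.

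Among the feedback regulators of p53, none of 4 passed limma's test, and 1, PPM1D, had an unadjusted p under 0.05, as did 21.4% of all genes. MDM2 encodes the ubiquitin ligase that degrades p53 and is itself a p53 target. Its log2 level was 10.27, 10.42 and 10.18 in the vehicle arrays and 10.51, 10.21 and 10.56 in the SAH-BCL9B arrays, and the groups overlapped. The 95% interval of its change ran from -0.13 to 0.40 (adjusted p = 0.594). MDM2 had 10 probe sets, of which 8 had a positive and 2 a negative change, from -0.22 to 0.13, and none of them passed.

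MDM4, the relative of MDM2 that binds p53 and blocks its activity, had a change of -0.17 ± 0.09 (SE, limma adjusted p = 0.326). Of its 6 probe sets, 5 had a negative change and none passed. The lowest change, -0.46 ± 0.29, had overlapping groups. Its arrays were at 10.34, 9.69 and 9.97 in vehicle and at 9.90, 8.85 and 9.86 in SAH-BCL9B, with SAH-BCL9B 2 the lowest. PPM1D, a phosphatase that removes activating marks from p53 and its kinases, was at 9.98, 10.06 and 9.93 in vehicle and at 10.28, 10.30 and 10.06 in SAH-BCL9B. Its highest vehicle array and its lowest SAH-BCL9B array nearly met, and the change of 0.22 ± 0.09 did not pass (adjusted p = 0.211). RPS27L, a ribosomal protein relative that acts on the loop between p53 and MDM2, had a change of 0.16 ± 0.08 (adjusted p = 0.316), with positive values in all 3 of its probe sets.

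The arrest genes held the largest rise of the set, that of PLK2. Of 7 measured, 1 rose, none fell and 6 did not pass, and 4 of the 7 had an unadjusted p under 0.05. PLK2 was at 10.28, 10.49 and 10.24 in the vehicle arrays. In the SAH-BCL9B arrays it was at 11.28, 10.94 and 11.15, each above every vehicle array. The change was 0.79 ± 0.11 on the log2 scale (SE, limma adjusted p = 0.00833). It passed without each array in turn. PLK2 has 1 probe set, so no other sequence checks it. PLK3, a related stress kinase, had a change of 0.28 ± 0.12 (adjusted p = 0.223), but its other 2 probe sets had negative changes of -0.12 and -0.22.

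CDKN1A, through which p53 stops the cycle, was at 9.59, 9.56 and 9.55 in vehicle and at 9.66, 9.49 and 9.37 in SAH-BCL9B. The vehicle arrays were close together and lay inside the range of the SAH-BCL9B arrays. The 95% interval of the change ran from -0.27 to 0.15 (limma adjusted p = 0.806), so neither a fall nor a rise of that size can be told from no change here, and without SAH-BCL9B 3 the value was 0.01.

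GADD45A, which acts in arrest and in DNA repair, came close to the threshold. Its level was 12.31, 12.28 and 12.26 in vehicle and 12.77, 12.42 and 12.71 in SAH-BCL9B. Every SAH-BCL9B array was above the vehicle arrays, and SAH-BCL9B 2 was the nearest to them. The change was 0.35 ± 0.10 (SE, limma adjusted p = 0.0912). It passed without SAH-BCL9B 2, where it was 0.46 (adjusted p = 0.0179, range over all alternatives 0.0141 to 0.239).

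The cyclin G genes, which encode atypical cyclins, had negative changes. CCNG1, a long-known p53 target that recruits a phosphatase to MDM2, was at -0.17 ± 0.08 (SE, limma adjusted p = 0.276), and CCNG2, associated with exit from the cell cycle, at -0.29 ± 0.08 (adjusted p = 0.0867). CCNG2 was at 11.87, 11.87 and 11.82 in vehicle and at 11.65, 11.43 and 11.61 in SAH-BCL9B, with no overlap. All 5 probe sets of CCNG2 had a negative change. Tested by itself with adjustment over all probe sets, of which 2.50% passed, 1 of the 5 passed, at -0.78 ± 0.11 (adjusted p = 0.0203). The mean of all 5 gave -0.35 and also passed (adjusted p = 0.0395, range over the alternatives 0.0161 to 0.264).

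ZMAT3, a zinc finger protein that binds RNA and restrains growth, varied most within a group. It was at 10.60, 10.35 and 10.54 in vehicle and at 11.12, 10.03 and 10.99 in SAH-BCL9B. SAH-BCL9B 2 was the lowest of all 6 arrays and the other SAH-BCL9B arrays were the highest. The change was 0.22 ± 0.26 (SE, limma adjusted p = 0.723), and it was 0.56 and passed without SAH-BCL9B 2 (adjusted p = 0.0238). Its other 4 probe sets had positive changes of 0.22 to 0.45. In 2 of them, at 0.25 and 0.44, all 3 SAH-BCL9B arrays lay above the vehicle arrays, SAH-BCL9B 2 included.

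**Figure D2:**
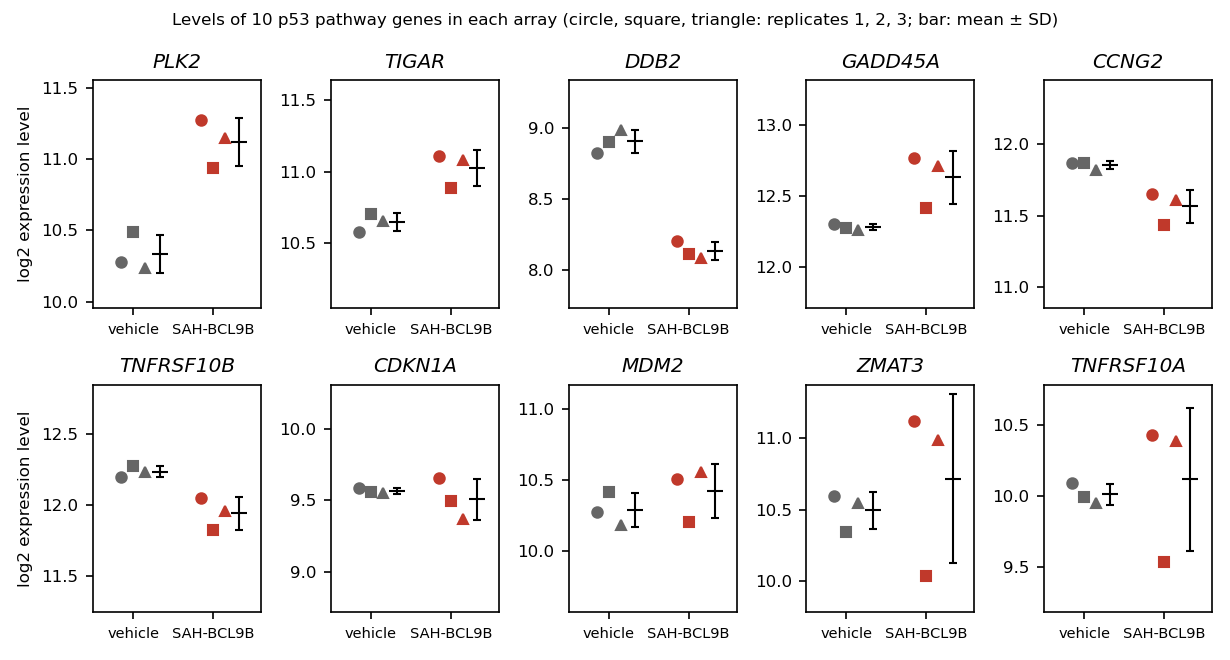
Log2 expression level (y axis, each panel spanning the same range of log2 units) of 10 p53 pathway genes in the 3 vehicle arrays (grey) and 3 SAH-BCL9B arrays (red), with the mean ± SD of each group. PLK2 and TIGAR are higher and DDB2 lower in every SAH-BCL9B array, CDKN1A and MDM2 overlap, and the red squares of ZMAT3 and TNFRSF10A (SAH-BCL9B 2) lie below the grey marks.

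None of the 9 measured death genes passed limma's test, although 8 had a positive change (median 0.20) and 3 had an unadjusted p under 0.05. Neither receptor for the death ligand TRAIL passed. TNFRSF10B, death receptor 5, was at 12.20, 12.27 and 12.23 in vehicle and at 12.05, 11.82 and 11.96 in SAH-BCL9B. The groups did not overlap, and the change of -0.29 ± 0.08 (SE) missed the threshold (adjusted p = 0.0845). Its 4 probe sets did not share a direction: 3 had a negative change and 1, whose vehicle level of 6.14 lay below the array medians, was at 0.33.

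TNFRSF10A, death receptor 4, was at 10.09, 9.99 and 9.95 in vehicle and at 10.43, 9.54 and 10.39 in SAH-BCL9B. SAH-BCL9B 2 was again the lowest array of all, and the others of its group were the highest. The change was 0.11 ± 0.22 (SE, limma adjusted p = 0.863) with all arrays and 0.40 without SAH-BCL9B 2, where it passed (adjusted p = 0.0337). The other 2 probe sets of TNFRSF10A had changes of 0.17 and 0.34, and in the latter the 3 SAH-BCL9B arrays all lay above the vehicle arrays. FAS, the receptor for FAS ligand, had a change of 0.17 ± 0.08 (adjusted p = 0.316), with SAH-BCL9B arrays of 9.36 to 9.44 above vehicle arrays of 9.12 to 9.34. Of its 5 probe sets, 2 had negative changes.

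Inside the cell, AEN, a nuclease that cuts DNA in dying cells, and TRIAP1, a mitochondrial protein that limits apoptosis, had similar values. AEN was at 8.18, 8.39 and 8.37 in vehicle and at 8.62, 8.59 and 8.49 in SAH-BCL9B, a change of 0.26 ± 0.09 (SE, limma adjusted p = 0.136). TRIAP1 was at 11.02, 11.05 and 11.06 in vehicle and at 11.29, 11.46 and 11.19 in SAH-BCL9B, a change of 0.27 ± 0.09 (adjusted p = 0.127). Both genes were above every vehicle array in all 3 SAH-BCL9B arrays. TP53INP1, which links p53 to autophagy and death, was at 0.27 ± 0.12 (adjusted p = 0.253), and the groups overlapped.

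PERP encodes a membrane protein of desmosomes that also takes part in p53-dependent death. Its probe set with the highest level did not pass, with a change of 0.04 ± 0.10 (SE, limma adjusted p = 0.883). Its 5 probe sets had changes from -0.31 to 1.15. The 1 at the top of that range, singled out after its values were seen, was at 6.10, 6.00 and 6.17 in vehicle, below the array medians, and at 7.33, 6.99 and 7.39 in SAH-BCL9B, and it passed when every probe set was tested by itself (adjusted p = 0.00905). The other 4 did not pass, and which transcript each of the 5 detects was not analysed here. EDA2R, a receptor of the tumour necrosis factor family, and PHLDA3, an inhibitor of the kinase AKT, had vehicle levels of 6.15 and 6.36, below the array medians of 6.58 to 6.62. Their changes were 0.20 ± 0.15 and 0.20 ± 0.10 (adjusted p = 0.556 and 0.333), and signal over background is unknown for such levels.

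Across the members there were 80 probe sets, from 1 to 10 per gene. When tested by themselves 4 of them passed, those of PLK2 and DDB2 and 1 each of CCNG2 and PERP, beside 2.50% of all probe sets. In 6 of the 16 genes with several, all probe sets went the same way, and in the other 10 they did not.

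**Figure D3:**
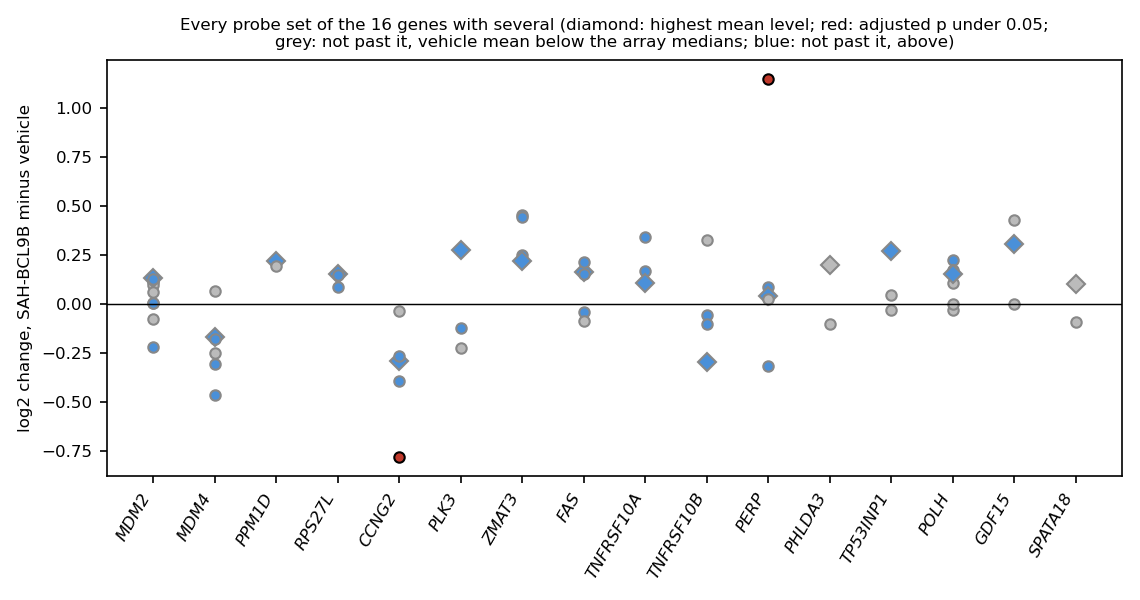
Log2 change (SAH-BCL9B minus vehicle, y axis) of every probe set of the 16 members that have several (x axis); diamonds are the probe sets with the highest mean level, red marks passed with adjustment over all probe sets, and grey marks did not and lay below the array medians in vehicle. All 5 probe sets of CCNG2 are below 0 and all 5 of ZMAT3 above it, while those of PERP run from -0.31 to 1.15.

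DNA repair was represented by 4 genes, with DDB2 lowered and no other past the test. DDB2 was at 8.83, 8.90 and 8.99 in vehicle. In SAH-BCL9B it was at 8.21, 8.12 and 8.09, so the groups lay far apart beside their SDs of 0.08 and 0.06. The change was -0.77 ± 0.08 (SE, limma adjusted p = 0.00296), and it passed in all 15 alternatives (adjusted p = 0.000201 to 0.0335). DDB2 has 1 probe set, so none of the alternatives checks it with another sequence. XPC, which works beside DDB2 in the recognition of damage, was at 10.59, 10.41 and 10.61 in vehicle and at 10.53, 10.56 and 10.52 in SAH-BCL9B. Its mean was 10.53 in each group, and the 95% interval of the change ran from -0.19 to 0.19. POLH, a polymerase that copies past ultraviolet damage, had a change of 0.15 ± 0.11, and RRM2B, a subunit of ribonucleotide reductase, of -0.04 ± 0.10 (adjusted p = 0.5 and 0.903).

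All 5 measured genes of metabolism, redox balance and mitochondria had a positive change, and 1 of them rose. TIGAR was at 10.58, 10.70 and 10.65 in vehicle and at 11.11, 10.88 and 11.08 in SAH-BCL9B. Each SAH-BCL9B array was above every vehicle array, and the change was 0.38 ± 0.09 (SE, limma adjusted p = 0.0432). TIGAR missed the threshold when any single array other than SAH-BCL9B 2 was left out (changes of 0.34 to 0.41, adjusted p = 0.1 to 0.178), and with every probe set tested by itself (0.0936). It too has only 1 probe set. GDF15, a secreted stress cytokine, was at 13.68, 13.97 and 14.01 in vehicle and at 14.27, 14.22 and 14.10 in SAH-BCL9B. The groups did not overlap, but vehicle 1 lay well below the other vehicle arrays, and the change of 0.31 ± 0.11 did not pass (adjusted p = 0.145).

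The remaining 3 of these genes overlapped between the groups. SESN1, a sestrin that restrains mTOR signalling, had a change of 0.14 ± 0.11 (SE, limma adjusted p = 0.556), and TP53I3, a quinone oxidoreductase linked to reactive oxygen, of 0.08 ± 0.10 (0.759). SPATA18, which acts in the quality control of mitochondria, had the lowest vehicle level of the members, 5.21, and a change of 0.10 ± 0.14 (0.778).

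SAH-BCL9B 2, which stood apart in ZMAT3 and TNFRSF10A, also had the lowest ACTB value of the RNA quality controls. The ACTB control probe sets, whose 3' minus 5' difference grows as RNA is degraded or copied short, gave 0.74 in SAH-BCL9B 2 and 1.20 and 1.33 in the other SAH-BCL9B arrays, beside 1.21 to 1.38 in vehicle. Over the groups it was 1.29 ± 0.09 in vehicle and 1.09 ± 0.31 in SAH-BCL9B (SD, two-sided exact permutation p = 0.4, where 3 against 3 arrays cannot give less than 0.1). The same difference for GAPDH did not set SAH-BCL9B 2 apart: it was 0.14 there, 0.13 in SAH-BCL9B 1, 0.086 in SAH-BCL9B 3 and 0.13 to 0.17 in vehicle. Of the 29 members, SAH-BCL9B 2 was the lowest of its group in 13, the highest in 9 and between the others in 7, and over all genes it was the lowest in 26.2% and the highest in 52.5%. Without SAH-BCL9B 2, 6 members passed, 5 of them higher: PLK2, TIGAR, GADD45A, ZMAT3 and TNFRSF10A, and DDB2 lower, while 1426 genes passed in all. Without SAH-BCL9B 2 and vehicle 3, 5 members and 1194 genes in all passed, and TNFRSF10A did not (adjusted p = 0.0579). The part of RNA quality in these values was not tested beyond a fit with the ACTB difference as a covariate, in which 1487 genes and 4 members passed, GADD45A in addition to the 3.

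Other genes of the pathway were set beside the members as lists of its known parts. Of 39 other p53 targets measured, 2 rose, 2 fell and 35 did not pass, with a median log2 change of -0.04. SESN2, a sestrin like SESN1 that is also a known target of the stress factor ATF4, fell by 0.88 on the log2 scale (± 0.08, SE, limma adjusted p = 0.00221). TGFA, a growth factor that binds the EGF receptor, fell by 0.38 (± 0.08, adjusted p = 0.0307). SERTAD1, a regulator of cyclin D and E2F activity, rose by 0.60 ± 0.10, and PRDM1, a transcriptional repressor, by 0.49 ± 0.11 (adjusted p = 0.0151 and 0.0419).

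Of 22 measured relatives and upstream regulators of p53, among them the damage kinases ATM, ATR, CHEK1 and CHEK2 and the coactivators EP300 and CREBBP, none passed limma's test, 5 had an unadjusted p under 0.05, and the median change was -0.02. A list of 20 genes covered the DREAM repressor complex, through which p53 and CDKN1A lower mitotic genes: 7 fell, none rose and 13 were not past the test, with a median of -0.25. Of the 20, RBL1, E2F4, LIN54 and LIN37 encode subunits of the complex and were among the 13. CDC25C, the phosphatase that starts mitosis, was at -0.65 ± 0.08 (adjusted p = 0.00507), and the mitotic cyclin gene CCNB2 at -0.54 ± 0.08 (0.0109). KIF23 and PRC1, of the dividing cell's midzone, were at -0.51 ± 0.10 and -0.49 ± 0.10 (adjusted p = 0.0243 and 0.0289). CDKN1A RNA had no detectable change, and whether p53, CDKN1A or the complex had a part in these falls was not tested. The lower mitotic genes were known from earlier results of these data and lend the list no independent weight.

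**Figure D4:**
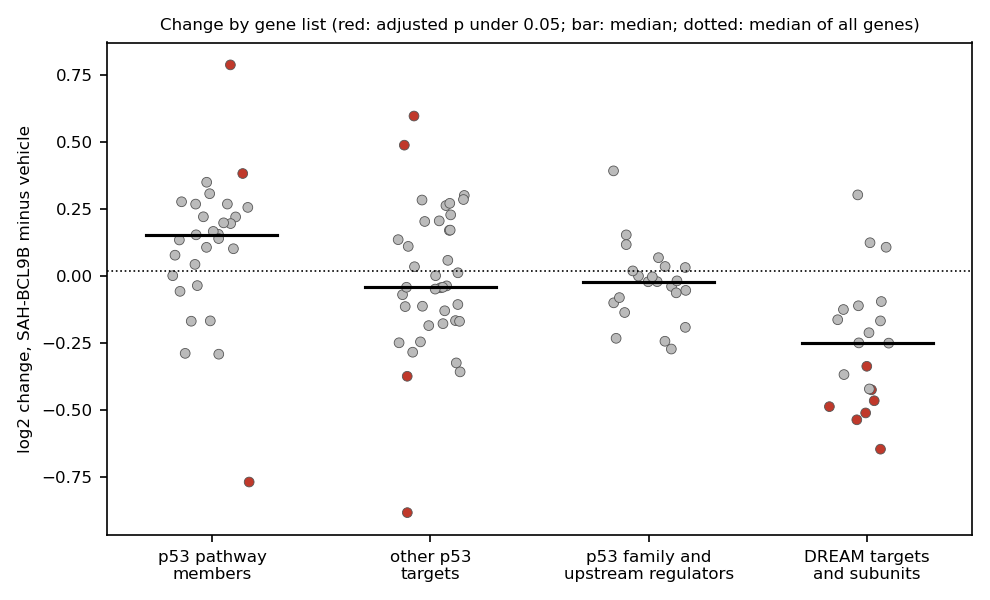
Log2 change (SAH-BCL9B minus vehicle, y axis) of each measured gene of 4 lists (x axis); bars are medians, red marks passed an adjusted p of 0.05 and the dotted line is the median of all genes, 0.02. The medians are 0.15 for the p53 pathway members, -0.04 for other p53 targets, -0.02 for relatives and upstream regulators and -0.25 for DREAM targets and subunits.

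The cells had most markers of a colorectal epithelial line. All 10 epithelial markers measured lay above the array medians in vehicle (7.12 to 14.9), EPCAM and CDH1 among them. Those medians are over all probe sets. CDX1 at 7.12 and LGALS4 at 7.22 lay below the median vehicle level over genes, 7.69, and no higher than some markers of other lineages. Of 10 markers of leukocytes, fibroblasts and endothelium, 7 did not lie above the array medians, with PTPRC at 4.28 and CDH5 at 4.19. The other 3 lay above the array medians: COL1A1 at 8.55, PECAM1 at 7.25 and PDGFRB at 7.03. None of those 10 markers of other lineages passed limma's test or had an unadjusted p under 0.05. Of the 10 epithelial markers, 7 had an unadjusted p under 0.05, as did 21.4% of all genes, and 3 passed. KRT8, a keratin gene, was at 0.50 ± 0.08 (SE, limma adjusted p = 0.0113). The cadherin gene CDH17 was at -0.55 ± 0.08 (0.00806) and the villin gene VIL1 at -0.86 ± 0.09 (0.00303).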

How the data were processed

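The deposited table, made by the authors, holds log2 levels of 54675 probe sets in 6 arrays. Per the submitters' processing notes it was made with RMA and affy, whose versions are not given in the sources. RMA equalises arrays and compresses changes of dim probe sets, so a shift common to nearly all genes would be lost. Gene names came from GEO's platform annotation and were matched to RefSeq by Entrez ID. Each of 19775 genes was represented by its brightest probe set on average, taken from those that name no other gene. Groups came from the array titles. Differences (SAH-BCL9B minus vehicle) were fitted without covariate or filter (limma 3.58.1, R 4.3.3), with Benjamini-Hochberg adjustment over all genes, and the procedure was tested on simulated data. Errors of a change are limma's standard errors. All 32 members were named, and of other lists those past the threshold, at most the 4 with the largest change. Motifs were matched in Python 3.11.15, and plots drawn with matplotlib 3.10.9. The members, lists and alternatives were chosen with earlier results of these data known. Alternatives were a filter on dim genes, median centring, a block on replicate number, the mean of a gene's probe sets, each probe set by itself, array weights, a variance trend with robust fit, the ACTB covariate, and arrays left out. The number of arrays limits the precision.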

Additional observations from a re-analysis of the deposited data

How the results depend on the processing

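With a variance trend and robust fit, 8 members passed (2456 genes in all), and with the filter on low values, which leaves out EDA2R, PHLDA3 and SPATA18, 6 did (2272 genes in all). Array weights gave 2172 genes. Without vehicle 3 and SAH-BCL9B 2, 5 members passed (1194 genes in all). Deviations from the group means had correlations of 0.24, -0.20 and -0.32 between same-numbered cultures. Between differently numbered cultures they ran from -0.32 to 0.42. With 3 arrays per group, these values cannot tell whether the numbers pair the cultures. With the replicate number as a block, 1 member passed, DDB2, and 296 genes in all (PLK2 0.055, TIGAR 0.135, limma adjusted p). Leaving out 1 array at a time gave 2 to 6 members, 316 to 1426 genes and a median member change of 0.11 to 0.16. The mean of all probe sets gave a median of 0.095 (21 of 29 positive) and 977 genes. Over 15 alternatives, PLK2 passed in 14, TIGAR in 8, GADD45A in 6, CCNG2 in 3, TNFRSF10B and ZMAT3 in 2 each, and GDF15, TNFRSF10A and TRIAP1 in 1 each.

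The sign turned in 9 members, and none of the turned values passed. With the ACTB covariate the change was -0.0025 for EDA2R, 0.017 for RRM2B, -0.013 for SPATA18, -0.020 for TP53I3 and -0.014 for XPC. XPC was at -0.0066 with array weights and PLK3 at -0.023 with the mean of all probe sets. With 1 array left out, values ran from -0.13 to 0.0097 for CDKN1A, from -0.018 to 0.14 for PERP, from -0.13 to 0.022 for RRM2B, from -0.050 to 0.40 for TNFRSF10A and from -0.062 to 0.037 for XPC.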
